A study of Mus musculus with 16 samples.

Results

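*Ccn1*, *Ccn2*, *Ccn3* and *Ccn5* encode matricellular proteins of the CCN family, and were chosen by name from the 17362 genes with a value in pituitary RNA. All 4 had a value above 0 in each of 16 female mice. They carry the older symbols *Cyr61*, *Ctgf*, *Nov* and *Wisp2*. The remaining family genes of the mouse, *Ccn4* and *Ccn6*, also had values and are given for comparison.

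The study searched for a circulating factor that builds bone in female mice lacking oestrogen receptor alpha in part of the hypothalamus, and the pituitary was profiled as a possible tissue source of it. Bulk RNA-seq was made from 1 pituitary per mouse, with 4 mice in each of 4 groups. Controls were Esr1fl/fl females, whose *Esr1* gene is flanked by loxP sites but intact, and mutants were Esr1Nkx2-1Cre females, which carry the same floxed allele with a Cre driven by *Nkx2-1*. Each genotype was fed either chow, here called the standard diet (SD), or a high-fat diet (HFD) for 17 weeks, and all mice were 27 weeks old. The mice had a mixed CD-1;129P2 background. The Cre deletes *Esr1* wherever *Nkx2-1* has been active, in the hypothalamus as well as the pituitary, so loss of the receptor in the brain and in the pituitary itself cannot be told apart.

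CCN proteins are secreted into the extracellular matrix, where their modules bind integrins, proteoglycans and growth factors. CCN1 and CCN2 are classical immediate early and YAP/TAZ-TEAD target genes, induced by serum, TGF-beta and mechanical load in endothelial cells and fibroblasts. CCN3 often opposes CCN2 in fibrosis models and binds integrins and Notch, and CCN5 lacks the C-terminal cystine-knot module that the other members carry and is known as an oestrogen-responsive gene in other tissues.

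Expression is given as a normalized signal, in which low values fall in steps that shrink with transcript length, so it was taken to be per length and levels are compared between genes. They summed to between 908897 and 1335782 per mouse. *Prl*, which encodes prolactin, took 28.8% to 40.6% of that sum, and all 7 pituitary hormone genes on the marker list were present in every mouse, as the tissue label states. The deleted gene *Esr1* had means of 38.9 (controls) and 18.6 (mutants) on SD, with an SD of 7.32 and 5.77 over 4 mice each, and of 37.3 ± 9.29 against 29.0 ± 5.53 on HFD. Averaged over the diets, *Esr1* fell by 0.71 on the log2 scale in mutants (limma, adjusted p = 0.0280). A pair of libraries stood apart. The mutant on SD numbered P357 and the control on HFD numbered P392 had summed levels of 4 melanotroph markers (the hormone cells of the intermediate lobe) of 1666 and 3484, against 11369 to 42298 in the other 14 mice, and the highest and second-highest summed levels of 7 endothelial markers, 214.8 and 192. P357 also had the largest summed signal, 1335782, and the most genes at 0, 533 against 96 to 310 in the other mice. Differences of the members are given below with and without P357 and P392 where leaving out 1 of them moved the value by over 1.5 times. Tests used limma on log2(value + 0.5) over the 14345 genes whose mean was 1 or more, with Benjamini-Hochberg adjustment over all of them. *Ccn1*, *Ccn2* and *Ccn3* passed this filter and *Ccn5* did not, and *Ccn5* was compared with exact permutation tests.

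*Ccn1* (ENSMUSG00000028195) lies on the minus strand of chromosome 3, 145646976 to 145649981 in GRCm38, and has 1 transcript of 2019 bp in 5 exons. *Ccn2* (ENSMUSG00000019997, chromosome 10, 24595442 to 24598683, plus strand) has 3 transcripts and overlaps the gene model *Gm15270*. *Ccn3* (ENSMUSG00000037362, chromosome 15, 54745702 to 54754039, plus strand) has 1 transcript, and *Ccn5* (ENSMUSG00000027656, chromosome 2, 163820861 to 163833146, plus strand) has 2. The overlap is one of gene spans, and shared exon sequence was not checked. The use of strand in counting is not given in the sources used here. Whether reads of the overlapping model enter the *Ccn2* values is therefore not known.

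The promoter of *Ccn1* is shown because *Ccn1* was the member that passed the test over all genes in the comparison of genotypes. The RefSeq window on GRCm38.p6 runs from 250 bases before to 50 bases after the start site, chr3:145649936-145650235, minus strand, and is printed 5′ to 3′ with motif matches in capitals.

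Ccn1: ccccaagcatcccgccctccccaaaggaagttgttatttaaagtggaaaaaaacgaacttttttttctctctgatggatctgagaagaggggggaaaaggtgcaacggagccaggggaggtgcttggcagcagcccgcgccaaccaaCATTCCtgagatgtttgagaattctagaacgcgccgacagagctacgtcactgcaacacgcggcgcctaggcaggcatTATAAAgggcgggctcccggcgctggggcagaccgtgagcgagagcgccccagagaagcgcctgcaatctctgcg

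On both strands, 6 motifs were searched: the TEAD motif GGAATG, the AP-1 motif TGANTCA, the oestrogen receptor motif AGGTCA, the SMAD motif CAGACA, the TATA motif TATAAA and the SRF CArG box. The first capitals are a TEAD match on the reverse strand that begins 103 bases before the start site, and the second are a TATA match that begins 25 bases before it. The TEAD motif was found in 14.7% of all 32851 promoter windows and the TATA motif in 13.6%, so neither match is rare. The other motifs, held by 7.81% (AP-1), 16.3% (oestrogen receptor), 21.0% (SMAD) and 1.63% (CArG) of the windows, had no match in these 300 bases. The matches are descriptions of letters and not binding sites.

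The members fell into an upper and a lower pair by level. Over the 16 mice the mean signal was 14.8 for *Ccn2* and 10.6 for *Ccn1*, above 60.9% and 52.7% of all listed genes. *Ccn3* (mean 1.48) and *Ccn5* (mean 0.755) lay above 21.9% and 14.6% of listed genes, and so were among the scarce transcripts. *Ccn2* exceeded *Ccn1* by a mean log2 difference of 0.55 ± 0.65 (SD, n = 16 mice) and was higher in 12 of 16 mice (two-sided exact sign-flip permutation test, adjusted p = 0.00198 over 3 pairs). *Ccn1* exceeded *Ccn3* by 2.40 ± 0.58 in log2 level, in 16 of 16 mice (same exact permutation test, adjusted p = 9.16e-05). *Ccn3* exceeded *Ccn5* by 0.76 ± 0.64 in log2 level, in 14 of 16 mice (same exact permutation test, adjusted p = 0.00133). The test passed for all 3 neighbouring pairs, although the mean difference of *Ccn2* and *Ccn1* was smaller than its SD over the mice, and the group means of *Ccn3* and *Ccn5* in mutants on SD were 1.61 and 1.62.

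**Figure D1:**
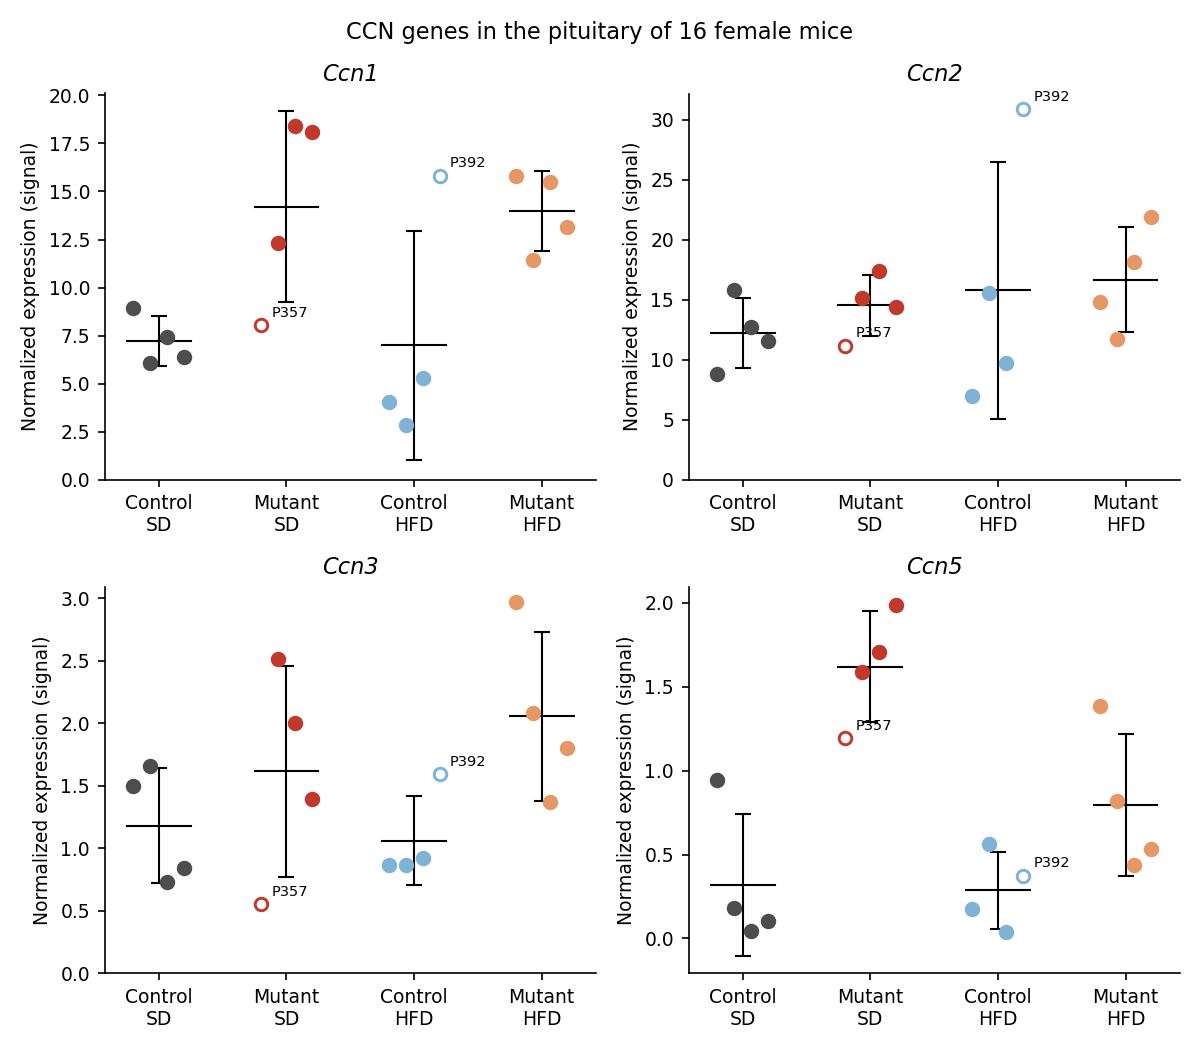
Normalized expression signal (vertical axes, linear) of the 4 CCN genes in each mouse, by genotype and diet. Horizontal bars are group means, error bars are SD (n = 4), and open circles mark P357 and P392. Control and mutant mice on SD do not overlap for *Ccn5*, and P392 is the highest control for *Ccn1*, *Ccn2* and, on HFD, *Ccn3*.

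The mean of *Ccn1* was 1.97 times as high in mutants as in controls on SD and 2.0 times as high on HFD, and it was the only one of the 3 members tested over all genes that passed the threshold, in the average over diets. On SD the controls had 8.95, 6.08, 7.40 and 6.36, and the mutants had 8.04 (P357), 12.3, 18.4 and 18.1. On HFD the controls had 4.04, 2.82, 5.29 and 15.8 (P392), and the mutants had 15.8, 11.4, 15.5 and 13.1. The genotypes overlapped on both diets. On SD, P357 lay below 1 control, and the other 3 mutants lay above every control. On HFD, P392 lay above 3 of the 4 mutants, and the other 3 controls lay below every mutant.

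The group means of *Ccn1* were 7.20 ± 1.3 in controls and 14.2 ± 4.98 in mutants on SD, and 6.99 ± 5.97 in controls and 14 ± 2.08 in mutants on HFD (SD, n = 4 each). Averaged over the diets, *Ccn1* rose by 1.05 on the log2 scale in mutants (SE 0.26, 95% confidence interval 0.49 to 1.61, limma adjusted p = 0.0287). In this comparison 6.54% of all 14345 genes passed the threshold, and 4.48% passed it as higher in mutants. A two-sided exact permutation test within diets gave p = 0.00571. The call was near the threshold: leaving out single mice gave a log2 difference of 0.90 to 1.29 and an adjusted p of 0.000236 to 0.0644 (limma), and it was kept without P341, P356, P357, P381, P388 or P392 and lost without each of the other 10 mice.

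Taken diet by diet, *Ccn1* did not pass the threshold over all genes. The log2 difference between genotypes was 0.88 on SD (SE 0.37, limma adjusted p = 0.211), where 1.84% of all genes passed and 1.37% as higher, and 1.22 on HFD (SE 0.37, limma adjusted p = 0.265), where 0% passed and 1461 genes had an unadjusted p under 0.05 in limma. Without P357 the genotypes on SD no longer overlapped in *Ccn1*, with 12.3 to 18.4 in the 3 remaining mutants and 6.08 to 8.95 in controls. The log2 difference was then 1.12 and did not pass the threshold (limma adjusted p = 0.135, in a fit where 0.934% of genes passed). Without P392 the genotypes on HFD did not overlap either, with 11.4 to 15.8 in mutants and 2.82 to 5.29 in the 3 remaining controls. The log2 difference was then 1.69 (limma adjusted p = 0.00156, in a fit where 4.55% of genes passed). Without both mice, the adjusted p was 0.00659 on SD and 0.000335 on HFD (limma, where 6.7% and 7.42% of genes passed), and averaged over the diets the log2 difference was 1.41. With all mice, 6.09% of genes tested on SD and 2.96% of those on HFD had every mutant above every control, and *Ccn1* was not among them.

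No diet difference of *Ccn1* passed the threshold. It was 0.036 on the log2 scale in mutants (95% confidence interval -0.76 to 0.83, limma adjusted p = 0.986) and -0.31 in controls (interval -1.10 to 0.48, limma adjusted p = 0.999). The interaction of genotype and diet was 0.35 (interval -0.77 to 1.47, limma adjusted p = 0.947). These values rest on the libraries that stood apart: without P357 the difference in mutants was -0.20 and the interaction 0.11, and without P392 the difference in controls was -0.78 (limma adjusted p = 1.0) and the interaction 0.82 (limma adjusted p = 0.926). Without both mice the interaction was 0.58. With all mice, in each of these 3 comparisons 0% of genes passed the threshold, and at an unadjusted p under 0.05 limma counted 717 genes for the diet in mutants, 592 for the diet in controls and 602 for the interaction.

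Levels of vascular marker genes moved with *Ccn1*. Of 7 endothelial markers, 4 (*Cdh5*, *Pecam1*, *Plvap* and *Tek*) rose in mutants averaged over the diets, by 0.43 to 0.62 on the log2 scale (limma adjusted p = 0.0175 to 0.0428). In that comparison 4.48% of all 14345 genes passed as higher in mutants. The summed signal of the 7 markers was 106 to 129 in controls on SD, 162 to 215 in mutants on SD, 99.1 to 192 in controls on HFD and 156 to 174 in mutants on HFD. Of the 4 pericyte and smooth muscle markers tested, *Rgs5* (1.2) and *Myh11* (0.82, log2 differences) rose, and the summed signal of all 6 on that list was 29.7 to 52.1, 77.0 to 94.9, 33.4 to 146 and 82.8 to 131 in the same 4 groups. No gene of either list was at 0 in any mouse. Over the 16 mice, the log2 level of *Ccn1* had a Pearson's r of 0.869 with the mean log2 level of the endothelial list and 0.843 with that of the pericyte list, as a description of points that share genotype, diet and library.

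**Figure D2:**
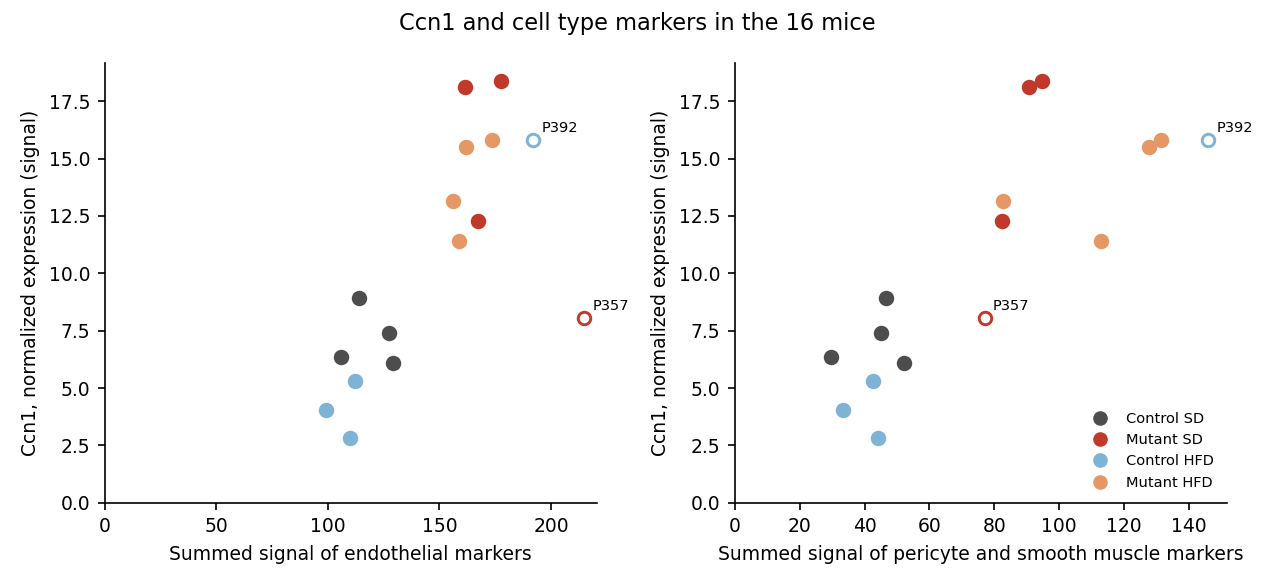
*Ccn1* signal (vertical axes) against the summed signal of 7 endothelial markers (left) and of 6 pericyte and smooth muscle markers (right), both linear, with 1 point per mouse coloured by group and P357 and P392 open. P392 lies among the mutants in both panels, with 15.8 for *Ccn1*, and P357 has the highest endothelial sum, 214.8, with a *Ccn1* of 8.04.

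The 2 libraries that stood apart lay differently in this respect. P392 had 15.8 for *Ccn1*, with the second-highest endothelial sum and the highest pericyte sum of all mice, 146. P357 had the highest endothelial sum but a *Ccn1* signal of 8.04, inside the range of controls on SD. That sum leans on *Plvap*, which averaged 84.3 over the 16 mice and reached 143 in mutants on SD. On the mean log2 level of the same list, mutants on SD had 3.81 ± 0.062 (SD, n = 4), so P357 lay near its group there. In bulk tissue, a change in the share of vascular cells and a change in *Ccn1* RNA per cell cannot be told apart, and the part of the vascular markers in the *Ccn1* result was not tested.

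*Ccn2*, the most abundant member, did not pass the threshold in any comparison. Controls on SD had 8.84, 15.8, 12.7 and 11.6, and mutants on SD had 11.2, 15.2, 17.4 and 14.4. Controls on HFD had 6.95, 15.6, 9.69 and 30.9 (P392), and mutants on HFD had 14.8, 11.8, 18.2 and 21.9. The groups overlapped on both diets, and P392 had the highest value of all mice.

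The log2 difference of *Ccn2* between genotypes was 0.25 on SD (limma adjusted p = 0.712) and 0.26 on HFD (limma adjusted p = 0.855). Averaged over the diets it was 0.25 (95% confidence interval -0.25 to 0.76, limma adjusted p = 0.572; two-sided exact permutation p = 0.342), so a rise of up to 0.76 is within the interval. Without P357, the difference on SD was 0.37, and without P392 that on HFD was 0.65 (two-sided exact permutation tests, 3 mice against 4, p = 0.143 in both). Averaged over the diets it was 0.45 without P392 and 0.51 without both mice (limma adjusted p = 0.117 and 0.0693). HFD changed *Ccn2* by 0.17 in mutants (interval -0.54 to 0.89) and by 0.16 in controls (interval -0.55 to 0.88), and the interaction was 0.0086 (interval -1.0 to 1.02, limma adjusted p = 0.997). Without P357 the diet difference in mutants was 0.056 and the interaction -0.11, and without P392 the diet difference in controls was -0.23 and the interaction 0.40.

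*Ccn3*, the member that the study followed as a brain-derived factor in the arcuate nucleus, was expressed at a low level in every group, and its highest values were in mutants. Controls on SD had 1.5, 1.65, 0.730 and 0.842, and mutants on SD had 0.551 (P357), 2.52, 2.0 and 1.39. Controls on HFD had 0.862, 0.864, 0.922 and 1.59 (P392), and mutants on HFD had 2.97, 2.08, 1.37 and 1.80. The genotypes overlapped on both diets. On SD, P357 was the lowest of the 16 mice, and on HFD 3 of 4 mutants lay above every control.

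Because *Ccn3* has 1 transcript, reads could be estimated from the size of the steps between low values, and its signal corresponded to about 23 to 125 reads per mouse. Counting error alone then gives a standard deviation of 8.93% to 20.9% of a value, against a spread between mice of 32.9% to 52.3% of the group mean. The log2 difference between genotypes was 0.27 on SD (95% confidence interval -0.41 to 0.95, limma adjusted p = 0.668) and 0.70 on HFD (interval 0.021 to 1.38, limma adjusted p = 0.478). Averaged over the diets it was 0.48 (interval 0.00462 to 0.96, limma adjusted p = 0.216; two-sided exact permutation p = 0.0539).

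The *Ccn3* values of P357 and P392 went against those of their groups. Without P392, the genotypes on HFD did not overlap, with 1.37 to 2.97 in mutants and 0.862 to 0.922 in controls, a log2 difference of 0.85 (two-sided exact permutation test, 4 against 3 mice, p = 0.0571). Without P357, the difference on SD was 0.57 with overlap (same exact permutation test, p = 0.171). Without both mice, *Ccn3* averaged over the diets was higher in mutants by 0.71 (limma adjusted p = 0.0188, in a fit where 18.6% of genes passed). With all 16 mice that call was not made.

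The mean of *Ccn3* in mutants was not lower on HFD than on SD. Mutants averaged 1.61 ± 0.845 on SD and 2.05 ± 0.676 on HFD (SD, 4 mice each), a log2 difference of 0.34 (95% confidence interval -0.34 to 1.02, limma adjusted p = 0.836). Without P357, the mutant with the lowest *Ccn3*, that difference was 0.038 (two-sided exact permutation test, 4 against 3 mice, p = 0.857). In controls the diet difference was -0.090 (interval -0.77 to 0.59), and the interaction was 0.43 (interval -0.53 to 1.39, limma adjusted p = 0.930). Without P392 the difference in controls was -0.24 and the interaction 0.58, and without P357 the interaction was 0.13.

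*Ccn5* was the scarcest of the 4 members and had the largest ratio between genotypes on SD. Controls on SD had 0.944 (P356), 0.18, 0.0429 and 0.107, and mutants on SD had 1.19 (P357), 1.59, 1.71 and 1.99. Controls on HFD had 0.175, 0.564, 0.0394 and 0.374 (P392), and mutants on HFD had 1.38, 0.822, 0.441 and 0.533. On SD every mutant lay above every control, and on HFD the genotypes overlapped, with 2 of 4 mutants above all controls.

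On SD the mean *Ccn5* signal was 0.318 ± 0.421 in controls and 1.62 ± 0.331 in mutants (SD, n = 4 each), a ratio of means of 5.09 and a log2(value + 0.5) difference of 1.48 (two-sided exact permutation test, p = 0.0286, the smallest that 4 mice against 4 allow). This scale understates the change of a gene at so low a level. Among the 2824 genes with a mean of 0.1 to 1, 5.17% had every mutant above every control on SD. In a limma fit over the 17169 genes averaging 0.1 or more, *Ccn5* had an adjusted p of 0.0314 on SD, where 1.64% of genes passed, and 0.0109 averaged over the diets, where 5.83% passed. Averaged over the diets, the exact permutation test gave a difference of 1.09 and p = 0.00122, and p was 0.000816 to 0.00408 with any 1 mouse left out.

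Without P356, the control with the highest *Ccn5*, the difference on SD was 1.79. Without P357 it was 1.58, and the groups still did not overlap (two-sided exact permutation test, 3 against 4 mice, p = 0.0571). On HFD the means were 0.288 ± 0.229 in controls and 0.795 ± 0.425 in mutants (SD, n = 4 each), a log2 difference of 0.71 (two-sided exact permutation test, p = 0.0857), and 0.77 without P392 (same exact permutation test, p = 0.143). Depth limits these values: by the step size, *Ccn5* had about 28 to 45 reads in mutants on SD but 1 to 25 in controls on SD and 1 to 13 in controls on HFD, so the controls' values are known to within about their own size in the lowest mice.

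The mean of *Ccn5* in mutants was 1.62 on SD and 0.795 on HFD. The log2 difference was -0.75 (two-sided exact permutation test, p = 0.0571; limma over genes averaging at least 0.1, adjusted p = 0.833, where 0% passed), and the groups overlapped through P357 (1.19) and P339 (1.38). Without P357 they did not overlap, with 0.441 to 1.38 on HFD and 1.59 to 1.99 on SD, and the difference was -0.86 (same exact permutation test, p = 0.0571). In controls the diet difference was 0.016 (same exact permutation test, p = 1), and -0.049 without P392. The interaction of genotype and diet for *Ccn5* was -0.77 (SE 0.43, limma over genes averaging at least 0.1, adjusted p = 0.935), so the genotype difference was not shown to depend on the diet.

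**Figure D3:**
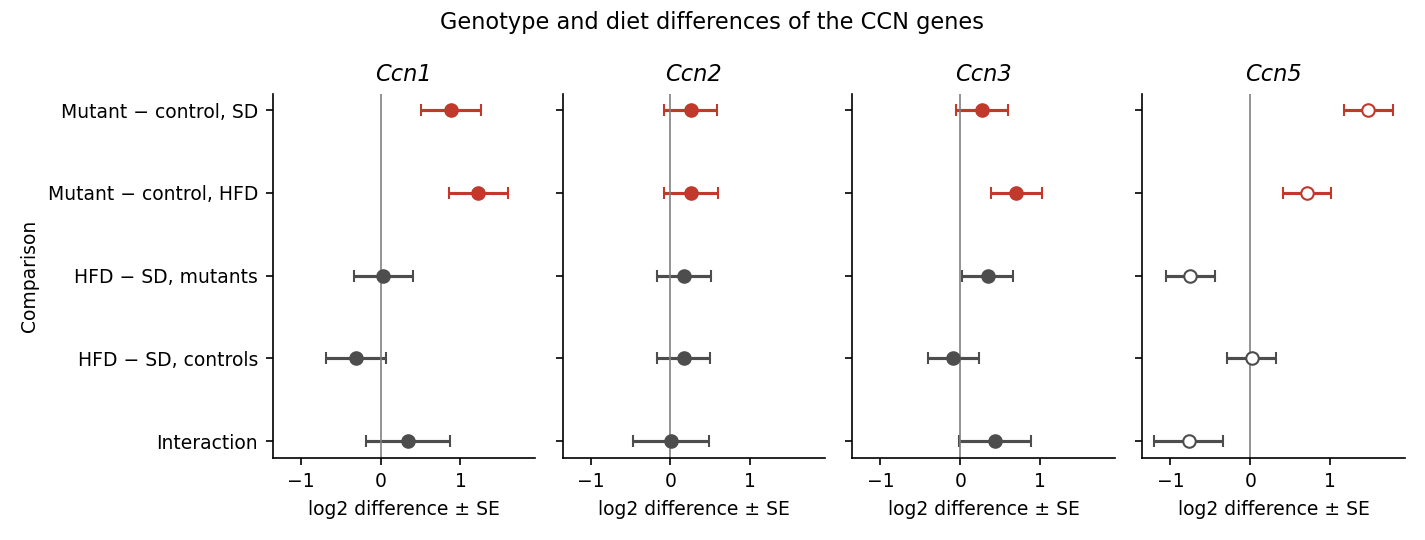
Log2 differences (horizontal axes, on the log2(value + 0.5) scale) of the 4 CCN genes in 5 comparisons, with bars of 1 standard error from limma over all 16 mice. Filled circles are from the fit over genes averaging 1 or more and open circles (*Ccn5*) from the fit over genes averaging 0.1 or more. Genotype differences are positive in all 8 cases, from 0.25 to 1.48, and the largest diet difference in size is -0.75 for *Ccn5* in mutants.

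Of the other family genes, *Ccn6* did not pass in limma over all genes, and *Ccn4* fell below the filter of that test. *Ccn4* (*Wisp1*), a Wnt target, had a mean of 0.970 and a genotype difference averaged over the diets of 0.026 (two-sided exact permutation test, p = 0.884). *Ccn6* (*Wisp3*), known from cartilage, had a mean of 1.08 and a difference of 0.54 (limma adjusted p = 0.18; two-sided exact permutation p = 0.0294). Its exact permutation p was under 0.05 without adjustment, the level also used for *Ccn5* on SD. The span of *Ccn6* overlaps that of *Tube1*, and whether reads of *Tube1* enter the *Ccn6* values was not checked.

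Members varied together in part. The log2 levels of *Ccn1* and *Ccn3* had a Pearson's r of 0.654 (permutation test, adjusted p = 0.0398 over 6 pairs) and a Spearman's rho of 0.585 (permutation test, adjusted p = 0.0557) over the 16 mice. Without the 2 mice farthest from the median of *Ccn1*, r was 0.606, and on deviations from group means it was 0.497. For *Ccn1* and *Ccn5*, r was 0.610 (permutation test, adjusted p = 0.0404) and rho 0.662 (permutation test, adjusted p = 0.0403), and 0.702 without the 2 farthest mice. On deviations from group means the r of *Ccn1* and *Ccn5* was 0.220, so most of that relation lay between the groups. The permutations shuffled mice across the groups, so the p-values of both pairs include differences between groups. Leaving out 1 mouse at a time, the call on r was kept in 10 of 16 cases for *Ccn1* and *Ccn3* (permutation test, adjusted p up to 0.0775). For *Ccn1* and *Ccn5* it was kept in 8 of 16 (permutation test, adjusted p up to 0.0855).

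The other pairs did not pass after adjustment. *Ccn1* and *Ccn2* had r = 0.545 (permutation test, adjusted p = 0.0522) and rho = 0.512 (adjusted p = 0.0690, permutation test), and *Ccn3* and *Ccn5* had r = 0.532 (permutation test, adjusted p = 0.0522) and rho = 0.518 (adjusted p = 0.0690, permutation test). *Ccn2* had r = 0.416 with *Ccn3* and 0.166 with *Ccn5* (permutation tests, adjusted p = 0.132 and 0.542). Animal numbers fell into a lower range of 6 mice and an upper range of 10. Within them, r was 0.675 and 0.781 for *Ccn1* and *Ccn3*, 0.712 and 0.610 for *Ccn1* and *Ccn5*, and 0.00962 and 0.636 for *Ccn1* and *Ccn2*.

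**Figure D4:**
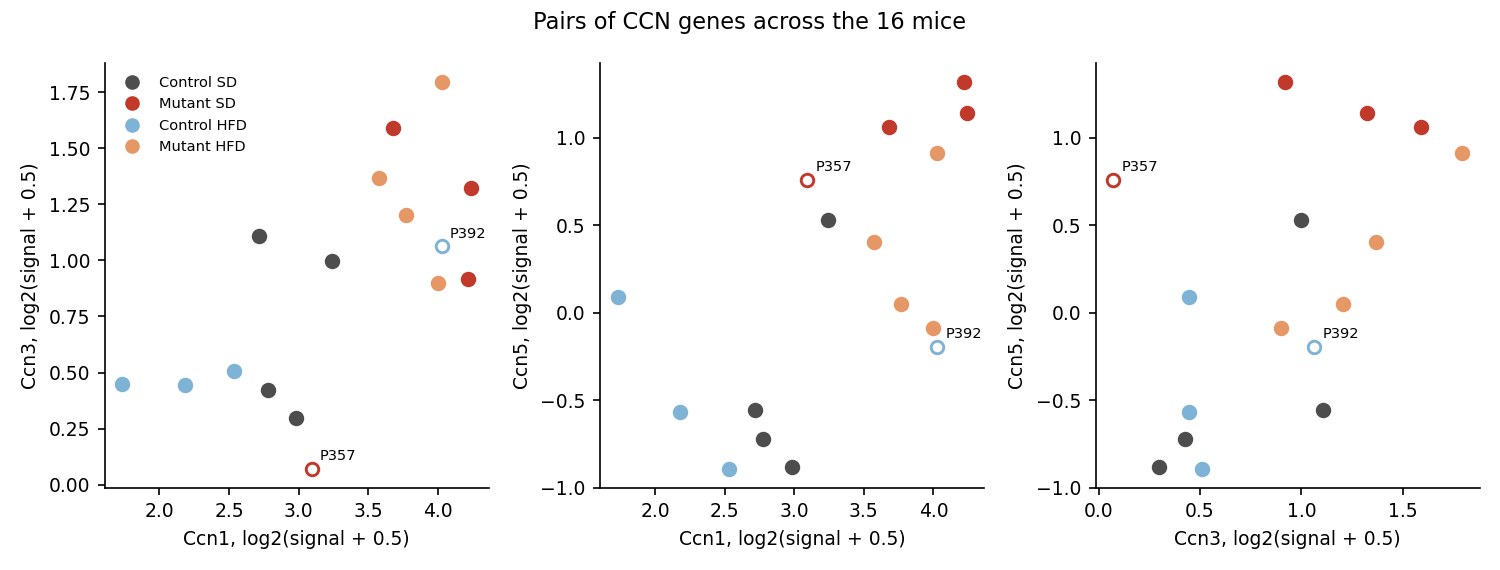
Log2(signal + 0.5) of *Ccn3* against *Ccn1* (left, r = 0.654), *Ccn5* against *Ccn1* (middle, r = 0.610) and *Ccn5* against *Ccn3* (right, r = 0.532), with 1 point per mouse coloured by group and P357 and P392 open. In the right panel P357 has the lowest *Ccn3* of all mice beside a high *Ccn5*, and r without the 2 mice farthest from the median of *Ccn3* is 0.694.

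For each member, genes from among the 5 of the 14337 searched whose log2 levels followed it most closely over the 16 mice are given as a description without a test. For *Ccn1* these were *App* (r = 0.917), *Hist1h4c*, the laminin chain *Lama3* and the matrix protein *Spon1* (r = 0.896). For *Ccn2* they were the potassium channel *Kcnc4* (r = 0.892), *Mxi1*, the protease *Ctsl*, *Arhgap31* and *Stk32c* (r = 0.813). For *Ccn3* they were *Cpne4* (r = 0.928), the amino acid transporter *Slc7a1*, *Btbd3*, *Galc* and *Ncald* (r = 0.888), and for *Ccn5* the neuropeptide Y receptor *Npy1r* (r = 0.906), the thrombin receptor *F2r*, *Itpk1*, *Kank4* and *Kcnj8* (r = 0.850). No gene was nearest to more than 1 member. On deviations from group means, r stayed at 0.813 to 0.953 for the genes nearest to *Ccn1*, *Ccn2* and *Ccn3* and was 0.556 to 0.725 for those nearest to *Ccn5*.

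Among receptors of CCN proteins, which are mainly integrins, 2 of 12 tested rose in mutants averaged over the diets, and none fell. They were *Itga6*, an integrin chain that CCN1 and CCN2 bind (log2 difference 1.00, limma adjusted p = 0.00515), and the fibronectin receptor chain *Itga5* (0.66, limma adjusted p = 0.0386). *Itga6* was 14.3 ± 3.32 in controls and 31.8 ± 4.62 in mutants on SD (SD, n = 4 each) and was the receptor that also passed on SD alone (1.14, limma adjusted p = 0.0318). The smallest difference was that of *Itgav* (-0.019). The median over the 12 was 0.30. Without P357 and P392 the count was 7, in a fit where 18.6% of all genes passed, a share that stands beside each count without both mice below.

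Of 9 ligands and matrix partners tested, 4 rose and none fell. They were *Vegfa*, the angiogenic factor that CCN2 binds (1.07, limma adjusted p = 0.0190), fibronectin *Fn1* (0.96, limma adjusted p = 0.0136), the basement membrane proteoglycan *Hspg2* (0.71, limma adjusted p = 0.0287) and *Tgfb1* (0.59, limma adjusted p = 0.0333). Decorin, *Dcn*, had the lowest difference, -0.31. The median was 0.50, and without P357 and P392 the count was 5. These counts with all mice, and those of the lists below, stand beside 642 higher (4.48%) and 296 lower among all 14345 genes. The median difference over all genes was 0.0017.

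Upstream of *Ccn1* and *Ccn2*, 1 of 16 Hippo pathway genes and TEAD factors rose, the co-activator *Yap1* (0.48, limma adjusted p = 0.0386), and the lowest was *Vgll4* (-0.17). Among 18 other YAP/TAZ target genes, 4 rose and none fell: *Igfbp3* (1.52, limma adjusted p = 0.00530), *Tgfb2* (1.12, limma adjusted p = 0.0262), *Dock5* (0.60) and *Ajuba* (0.45). *Amotl2*, another target of the same factors, had the lowest difference, -0.32. The medians of these lists were 0.078 and 0.13, near the centre of all genes, and without P357 and P392 the counts were 4 and 7.

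None of 12 other TGF-beta pathway genes (from *Tgfbr3*, -0.53, to *Tgfb3*, 0.62), none of 10 SRF and MRTF genes (from *Vcl*, -0.23, to *Acta2*, 0.51) and none of 13 immediate early genes (from *Btg2*, -0.27, to *Atf3*, 1.3) passed the limma threshold averaged over the diets. At an unadjusted p under 0.05 the counts in limma were 3, 2 and 2, against 22.7% of all genes, so these shares lay near or below that of all genes. On SD alone, the immediate early gene *Jun* rose (1.14, limma adjusted p = 0.0466). Without P357 and P392 the counts of the 3 lists were 3, 1 and 4.

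Of 11 Notch pathway genes, listed because CCN3 binds Notch, 5 rose and none fell. *Jag2* changed most (1.28, limma adjusted p = 0.00174), with 20.4 ± 7.78 in controls and 61.3 ± 7.91 in mutants on SD (SD, n = 4 each), followed by *Dll4* (0.82), *Hes1* (0.64), *Notch3* (0.64) and *Jag1* (0.59). *Dll1* had the lowest difference, -0.17. The median was 0.59, and without P357 and P392 the count was 7. *Dll4* is a gene of endothelial cells and *Notch3* of pericytes, and some genes of both marker lists also rose in mutants, as given above. The relation of the Notch pathway genes to these lists was not tested.

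**Figure D5:**
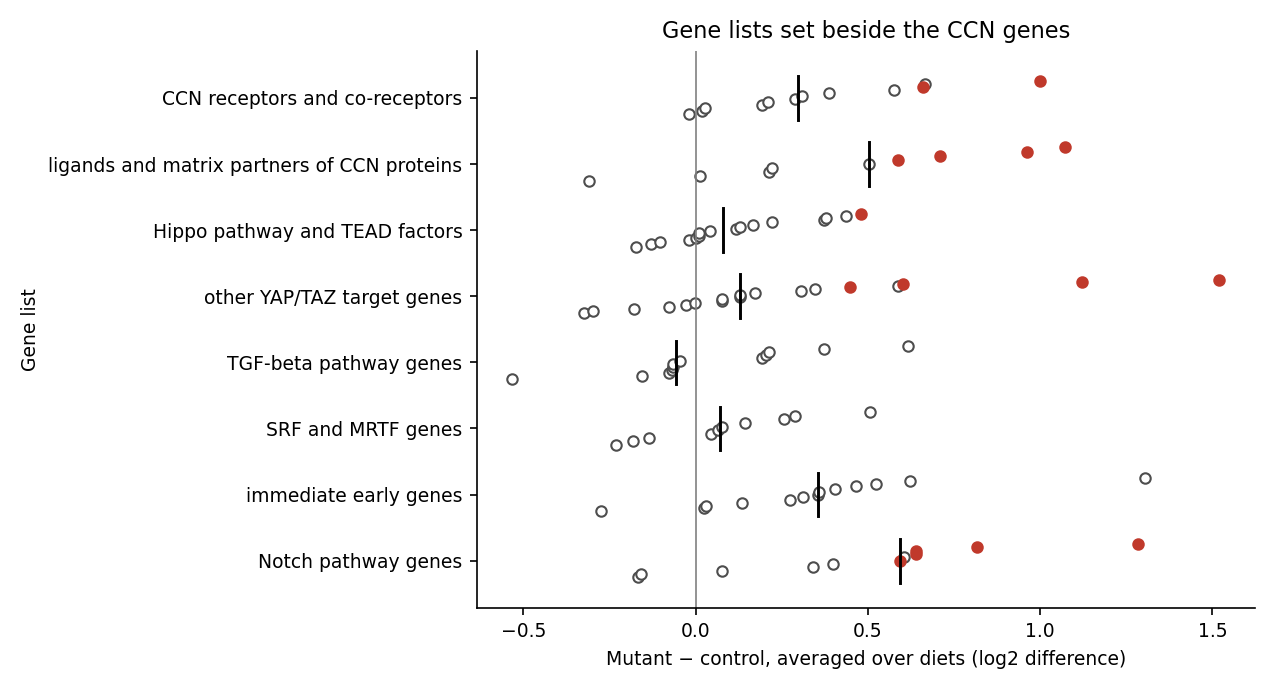
Mutant minus control log2 difference averaged over the diets (horizontal axis) for each tested gene of 8 lists (rows). Red points passed an adjusted p under 0.05 in limma over 14345 genes, open points did not, and black bars are list medians, which run from -0.056 (TGF-beta pathway genes) to 0.59 (Notch pathway genes).

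Of the other marker lists, *Cd9* and *Aldh1a2* rose among 5 stem and folliculostellate markers tested, *C1qa* among 6 immune markers and *Col25a1* among 5 posterior lobe markers. These calls are averaged over the diets, where 4.48% of all genes passed as higher in mutants. None of 5 fibroblast, 4 melanotroph, 7 hormone and 1 cartilage and bone genes tested passed the limma threshold, with 1, 0, 1 and 1 at an unadjusted p under 0.05, where 22.7% of all genes had one. *Ccn1* had an r of 0.637 with the fibroblast list and 0.677 with the immune list. *Ccn3* had an r of 0.582 with the fibroblast list, below its 0.70 with the pericyte and smooth muscle list and 0.61 with the endothelial list. The summed fibroblast signal was 174 to 229 in controls and 239 to 379 in mutants on SD. On HFD the sums overlapped, with 99.7 to 671 in controls, the highest in P392, and 236 to 535 in mutants. *Ccn5* had its highest r with the endothelial list, 0.683. Among 4 genes known to be induced by oestrogen, *Gal* (2.50, limma adjusted p = 0.0101) and *Greb1* (0.71, limma adjusted p = 0.0466) rose in mutants, and *Prl* had the lowest difference, 0.17. The part of these cell types in the values of the CCN genes was not tested.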

How the data were processed

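Pituitary RNA of 16 female mice, 4 per group, was measured as 1 library per mouse. Per the labels and the paper's methods, libraries were made with a NEBNext Ultra II kit, run on a NovaSeq, quantified with kallisto in gene mode (mm10) and tested by the authors with sleuth. Tool versions, annotation release and use of strand are not given in the sources used here. The deposited values are a non-negative normalized signal and not counts, so the planned branch for values that are not counts was taken. The number of columns of no sample was 0.

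A symbol was found for 17351 genes, and coordinates are from GENCODE M21 (GRCm38). Genes averaging 1 or more (14345) were transformed to log2(value + 0.5) and fitted in limma 3.58.1 (R 4.3.3) with a mean for each group, using all 16 mice and a variance trend, and p-values were adjusted by Benjamini-Hochberg in each comparison, with a threshold of 0.05. The script was tested on simulated data. Each member was also tested by two-sided exact permutation over mice (20 tests, not adjusted), and correlations used 100000 permutations. Python 3.11.15, scipy 1.17.1 and numpy 2.4.6 were used. Total reads per library are not given in the sources used here. Reads of genes with 1 suitable transcript were estimated from the step between low values, where 75.8% to 85.5% of low values lay within 0.1 of a whole number of reads. They are approximate and served no test. For *Ccn5* the length of its longest transcript, 1719 bp, was used.

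The members and gene lists were chosen with earlier results of these data known. Genes named are the 4 members, *Ccn4*, *Ccn6*, *Esr1*, the genes of each list past the threshold or at its ends, and the 5 genes most alike to each member, of which 1 is not reported here. Samples were grouped by the labels' genotype and diet, and p-values measure the spread between mice. Alternatives tried were other filters, pseudocounts and scalings, a fit with no variance trend, a fit of the compared mice alone, a covariate for the animal number range, and leaving out mice. Listed genes such as *Acan*, *Ankrd1*, *Cnn1* and *Actg2* were not analysed here.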

Additional observations from a re-analysis of the deposited data

Results flagged for a closer look

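Among the 16 groups of 4 mice (4 members in 4 groups), 2 had a mouse farther from the others than Dixon's limit allows, where chance gives about 1 in 20, or 0.8. *Ccn3* in the control on HFD numbered P392 was 1.59, against 0.862 to 0.922 in the other 3 controls on HFD. *Ccn5* in the control on SD numbered P356 was 0.944, against 0.0429 to 0.18 in the other 3 controls on SD, and P356 did not stand apart in its melanotroph markers.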

How the results depend on the processing

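No genotype, diet or interaction value changed direction or side of the threshold with the filter set at 0.1 or removed (4 members), without the variance trend or, for the comparisons within a diet or genotype, with the compared mice alone (*Ccn1*, *Ccn2* and *Ccn3*), or with the filter set at 5 (*Ccn1* and *Ccn2*, since the others fall below it). Differences near 0 changed sign: *Ccn1* for the diet in mutants was -0.014 with quantile normalization and -0.20 without P357 and P392, *Ccn2* for the diet in controls was -0.10 with a covariate for the animal number range and -0.23 without both mice, the *Ccn2* interaction was -0.012 with median scaling and -0.052 with quantile normalization, and *Ccn5* for the diet in controls was -0.00334 with a pseudocount of 1 and -0.049 without both mice. Without both mice, the *Ccn1* genotype difference passed on SD (1.12, limma adjusted p = 0.00659) and on HFD (1.69, limma adjusted p = 0.000335). *Ccn3* passed averaged over the diets (0.71), and the correlation of *Ccn3* and *Ccn5* passed (0.734). *Ccn5* on SD lost its call in the exact permutation test (p = 0.0571), which then had 35 arrangements of mice in place of 70. Its difference was 1.58, against 1.48 with all mice, and the groups still did not overlap. The cause of these changes was not tested.

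Leaving out 1 mouse at a time, the genotype differences of *Ccn1* ran from 0.73 to 1.12 on SD, 0.93 to 1.69 on HFD and 0.90 to 1.29 averaged, that of *Ccn2* on HFD from -0.044 (without P385) to 0.65, and that of *Ccn5* on SD from 1.32 to 1.79. The diet differences ran from -0.20 to 0.18 (*Ccn1*, mutants), -0.23 to 0.47 (*Ccn2*, controls), -0.24 to 0.043 (*Ccn3*, controls), -0.95 to -0.62 (*Ccn5*, mutants) and -0.14 to 0.33 (*Ccn5*, controls), and the *Ccn2* interaction from -0.29 to 0.40. The correlations ran from 0.438 to 0.707 (*Ccn1* and *Ccn2*), 0.625 to 0.697 (*Ccn1* and *Ccn3*), 0.553 to 0.715 (*Ccn1* and *Ccn5*) and 0.468 to 0.721 (*Ccn3* and *Ccn5*). No paired analysis was possible because the labels give no replicate numbers shared between groups. The depth per library is unknown, and counting error limits *Ccn5* in controls most. The number of calls over all genes averaged over the diets went from 938 to 1931 without P392 and 2668 without both mice, and on HFD from 0 to 653 and 1064.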
